A study of Mus musculus with 2 samples.

Results

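Sox2ot is a long noncoding gene that carries the protein-coding gene Sox2 within one of its introns, on the same strand. The interval examined was chr3:34000000-34600000 on mm9, which by distance takes in the whole annotated span of Sox2ot and, near position 34548900, the start of Sox2. Members were all deposited transcripts of either strand that overlap this interval, and 32 of the 110003 transcripts in the list did so. The list was made for V6.5 mouse embryonic stem cells cultured with irradiated embryonic fibroblasts, from which 1 polyadenylated library and 1 library of total RNA without ribosomal RNA were sequenced. The 2 groups share the cell line and the culture, differ only in the RNA fraction, and cannot be compared here because the list is pooled and carries no value per library. Each transcript has a position, strand, exon blocks and a name. No read counts come with it, so depth is unknown. A transcript that is not in the list cannot be told from one that was too rare to be detected or was filtered. The columns name no library and the assembly is not given. A listed transcript can therefore not be traced to either library, and its presence is no measure of its level.

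Sox2 encodes an HMG-box transcription factor that works with Oct4 to maintain the pluripotent state, and that later marks neural progenitors. Sox2ot ("overlapping transcript") is spliced into many isoforms from several widely spaced starts and is best known from the nervous system. Most of its isoforms begin upstream of Sox2, and the interval has no other protein-coding gene in the annotation.

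The list did not hold Sox2ot around Sox2. It held the far upstream end of Sox2ot, in 3 transcripts that end at least 141036 bp before Sox2, and no transcript of either strand reached across the Sox2 start. The remaining 29 transcripts were other genes and unnamed pieces, most of them on the minus strand. The exon and junctions that identify the spliced transcripts are given first, because the list itself names no gene. They are transcribed strand, 5′ to 3′, from the GENCODE transcripts of GRCm38.

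The following line is exon 2 of Sox2ot (chr3:34197161-34197229 on GRCm38, plus strand), in capitals, with 30 nt of exon 1 before it and 30 nt of exon 3 after it. It is shown because the 69 nt exon between its 2 introns is what names the transcript with the longest genomic span in the interval.
Sox2ot-218 exon 2: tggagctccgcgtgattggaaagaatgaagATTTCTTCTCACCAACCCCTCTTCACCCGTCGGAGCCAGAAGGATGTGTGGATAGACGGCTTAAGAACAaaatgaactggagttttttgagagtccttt
The next line is the point at chr3:34104542-34104601 (GRCm38, plus strand) where the isoforms Sox2ot-203 and Sox2ot-204 are spliced. The capitals are the first 30 bases of their intron, starting with GT, which the unspliced transcripts at this place keep.
Sox2ot-212 retained splice site: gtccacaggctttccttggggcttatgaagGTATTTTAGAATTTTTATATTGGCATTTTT

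The Sox2ot transcripts FT310371 and U184134-1 were unspliced and identical in position (chr3:34003192-34005886 on mm9, plus strand, 2695 nt). FT310371 was deposited as 2 touching blocks of 1116 and 1579 nt with a score of 998, and U184134-1 as 1 block. They started 312225 bp upstream of U227811-1, a transcript with the structure of the noncoding gene Gm34599. In GRCm38 the annotated isoform Sox2ot-212, classed as a retained intron, also starts 312225 bp upstream of Gm34599 and is 2695 nt long, so both ends coincide to the base. The splice site printed above lies at base 302 of this transcript and the remaining 2393 bases run into the intron. These transcripts therefore mark the outermost annotated start of Sox2ot, 545708 bp upstream of the Sox2 point, without showing a splice from it.

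The third Sox2ot transcript, U229927-1, was the only one spliced. It ran from 34095432 to 34407864 on the plus strand of mm9 chromosome 3, a span of 312433 bp, with exons of 520, 69 and 450 nt that fill 0.333% of the span. Its first intron was 131 bp and its second 311263 bp. The run of 131, 69 and 311263 occurs in Sox2ot alone among annotated genes of this chromosome and strand. The 131 bp intron is part of 2 annotated isoforms (Sox2ot-202 and Sox2ot-218), and the 69 nt exon with the 311263 bp intron is part of 4.

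At its 3′ end U229927-1 stopped where Sox2ot-218 stops, in an exon of 450 nt. The other 3 isoforms with this exon, Sox2ot-202, Sox2ot-203 and Sox2ot-204, use only its first 94 nt and are spliced onward towards Sox2. At its 5′ end it began 354 bp upstream of Sox2ot-218 and 241 bp upstream of Sox2ot-202. The start thus matched neither annotated isoform within 100 bp, while all its splice sites matched. It ended 141036 bp short of the Sox2 point and began 89545 bp downstream of FT310371, with no spliced transcript joining the 2 positions.

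**Figure D1:**
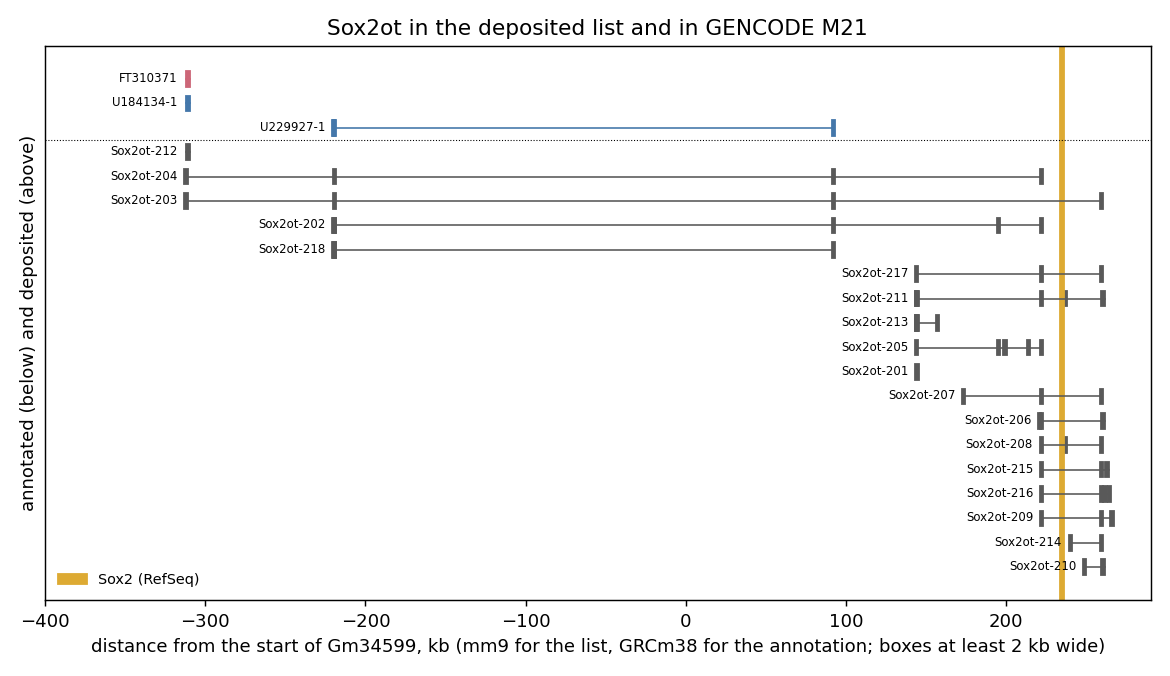
The 3 Sox2ot transcripts of the list (top, blue for names starting with U and red for FT) and the 18 annotated Sox2ot isoforms (grey), drawn as exons (boxes) and introns (lines) by distance in kb from the start of Gm34599. The deposited transcripts end at most 92447 bp past that start, while Sox2 (yellow) lies at 233500 to 235966 bp.

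Most of annotated Sox2ot had no counterpart in the list. GENCODE gives Sox2ot (ENSMUSG00000105265.4, chr3:34104270-34682619 on GRCm38, plus strand) 18 transcripts with 26 distinct introns, and 2 of these introns (7.69%) were found. The annotated 5′ ends fall into 12 starts when ends within 100 bp are merged, and deposited Sox2ot transcripts began at 1 of them, that of Sox2ot-212. The 12 include the entry Sox2ot-201, whose 67 nt are exon 2 of Sox2ot-211 and Sox2ot-213, so it need not be a start of its own. No deposited Sox2ot transcript began at the start shared by Sox2ot-205, Sox2ot-211, Sox2ot-213 and Sox2ot-217, which is the start of the RefSeq transcript, 89614 bp upstream of Sox2. The starts closest upstream of Sox2, those of Sox2ot-206, Sox2ot-208 and Sox2ot-209 at 12826, 11821 and 11491 bp, were likewise without a transcript. Of the 18 isoforms 9 span Sox2 in the annotation. In the list 0 transcripts did.

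Sox2 itself lay in an empty stretch. No span and no exon of either strand covered the Sox2 point. The stretch free of transcripts around it ran from 34540946 to 34562577 on mm9 (21632 bp), 7954 bp to the upstream side and 13677 bp to the downstream side. In GRCm38 the RefSeq Sox2 gene starts 233500 bp downstream of the start of Gm34599, which is 17 bp from the distance of the Sox2 point to U227811-1 in mm9, and ends at 235966 bp. The empty stretch covers 225529 to 247160 bp on that scale, and so takes in the whole of Sox2, a gene of 1 exon and 2467 bp. By size it ranked 5 among the 12 stretches without a transcript in the interval. The largest, 76344 bp, followed the unspliced Sox2ot transcripts (34005887 to 34082230).

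Embryonic stem cells are known to express Sox2 strongly. Sox2 is unspliced, so it could not be looked up by runs of intron, exon and intron lengths. Of 6 other marker genes of stem cells and of the fibroblast layer, Nanog, Pou5f1, Col1a1, Col1a2, Vim and Thy1, none was found by such runs. Over all annotated genes that could be matched in this way, 3843 of 25151 (15.3%) were found. The stem cell label can for this reason not be checked from the list, and the labels and header do not say how coding genes were treated when it was made.

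The neighbours of Sox2 were short and on the minus strand, opposite to that of Sox2 and Sox2ot, and none of them overlapped Sox2. Closest on the upstream side was U309873-1, an unspliced transcript of 431 nt at 34540515-34540945 with no annotated counterpart, whose 5′ end was 7955 bp from the Sox2 point. On the downstream side lay U023934-1 (34562578 to 34563211, 634 nt) and FT326363 (34562581 to 34563211, 631 nt, score 998). FT326363 has both ends of Gm42693, an unspliced gene of 631 nt that awaits experimental evidence in the annotation. U196911-1 followed at 34563606-34564080 (475 nt). These 4 were the transcripts within 20 kb of the point, and 10 lay within 50 kb.

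**Figure D2:**
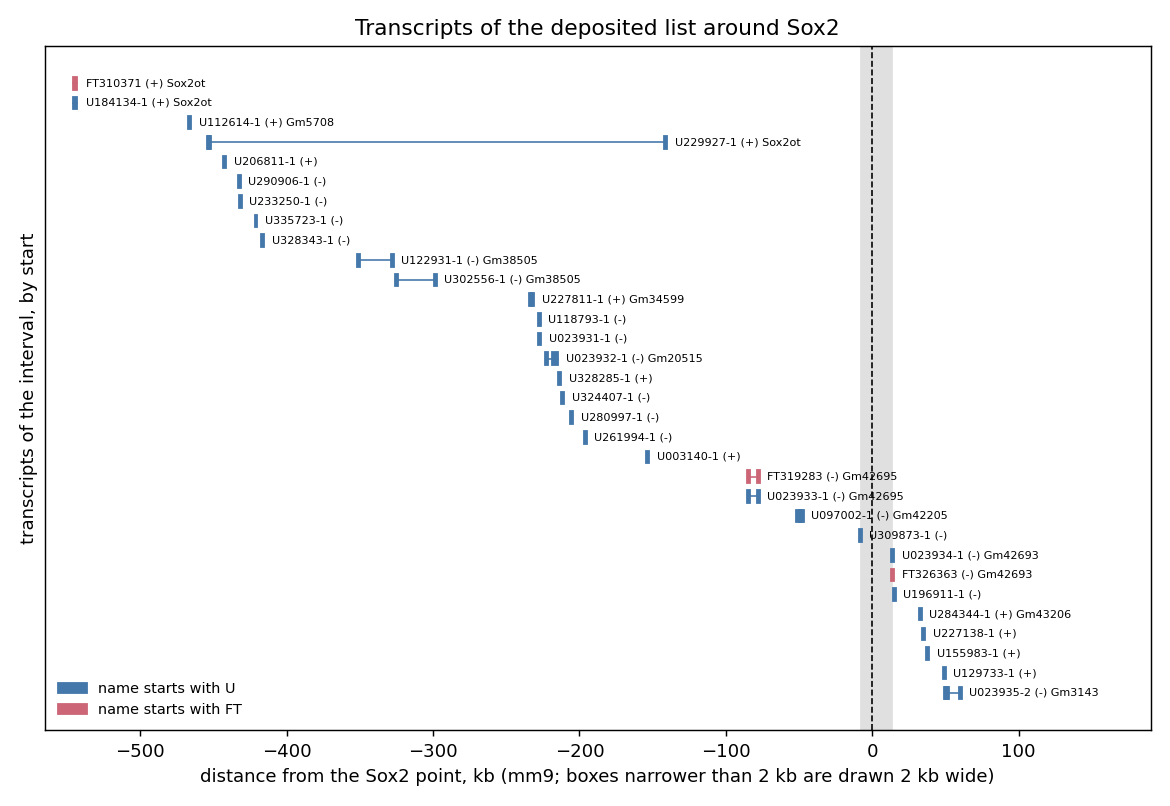
The 32 transcripts of the interval by distance in kb from the Sox2 point (dashed line, mm9), 1 per row, with exons as boxes, introns as lines, strand and matched gene beside each name. The grey band is the stretch of 21632 bp around Sox2 that holds no transcript, and the widest line is U229927-1.

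Within its long intron Sox2ot enclosed a set of other transcripts. All 16 transcripts that lie inside the span of U229927-1 lie in the 311263 bp intron, 4 on its own strand and 12 on the other, and 4 of them were spliced. On the plus strand the spliced one was U227811-1 (34315417 to 34317084, exons of 92 and 196 nt, intron 1380 bp). Its exons, intron and ends are those of Gm34599, a gene of 288 nt (chr3:34416495-34418162 on GRCm38). It is printed whole, with exon 2 in capitals, since it is the landmark from which distances were taken.
Gm34599: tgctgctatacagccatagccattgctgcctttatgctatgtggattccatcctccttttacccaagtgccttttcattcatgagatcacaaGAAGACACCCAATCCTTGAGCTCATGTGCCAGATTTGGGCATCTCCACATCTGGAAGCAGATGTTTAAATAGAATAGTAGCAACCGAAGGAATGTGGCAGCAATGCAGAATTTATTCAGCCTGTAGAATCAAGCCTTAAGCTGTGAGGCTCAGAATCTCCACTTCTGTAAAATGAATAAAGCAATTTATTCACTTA

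On the minus strand of the same intron, Gm38505 appeared in 2 pieces. U302556-1 (34223741 to 34250637) held the splice from exon 1 to exon 2, with an intron of 26646 bp and the complete exon 2 of 172 nt. U122931-1 (34197452 to 34221211) held the splice from exon 3 to exon 4, with an intron of 23111 bp. It began inside exon 3, keeping 53 of its 124 nt, and ended inside exon 4, with 596 of 954 nt. The annotated splice between them, over an intron of 2458 bp, was in neither transcript. The 3 junctions are printed with 30 nt on each side and the downstream exon in capitals, and the second is the one that the list lacks.
Gm38505 exon 1 to 2: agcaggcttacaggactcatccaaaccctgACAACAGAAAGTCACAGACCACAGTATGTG
Gm38505 exon 2 to 3: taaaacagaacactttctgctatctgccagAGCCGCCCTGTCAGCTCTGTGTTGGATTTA
Gm38505 exon 3 to 4: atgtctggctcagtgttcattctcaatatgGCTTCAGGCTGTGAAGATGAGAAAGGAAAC

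Gm20515, also antisense within this intron, was represented by U023932-1 (34326295 to 34334019, exons of 682 and 4142 nt, intron 2901 bp). With 4824 nt it was the longest RNA of the interval, and both its ends and its intron equal those of the annotated gene.

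Between the exons of the deposited Sox2ot transcripts and Sox2 lay 2 further minus-strand genes with complete splicing patterns. In the annotation, other Sox2ot exons lie on both sides of each of them. Gm42695 was the one spliced gene of the interval present under both name types. FT319283 (score 996) and U023933-1 share their ends (34464187 to 34471124), the intron of 6120 bp and a length of 818 nt, although FT319283 was deposited in 4 blocks and U023933-1 in 2. Gm42205 was represented by U097002-1 (34497448 to 34501170, 797 nt), the transcript with the most exons together with U023935-2, at 4 each. All 3 of its introns, 1137, 97 and 1692 bp, are annotated, and its exon 3 has only 32 nt. Its 3′ end fell short of the annotated 804 nt by less than 10 bp. The short exon is printed in capitals between its neighbours (chr3:34600621-34600652 on GRCm38, minus strand), with the Gm42695 junction below it.
Gm42205 exon 3: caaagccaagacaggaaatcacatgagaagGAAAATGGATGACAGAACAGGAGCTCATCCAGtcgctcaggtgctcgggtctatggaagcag
Gm42695 exon 1 to 2: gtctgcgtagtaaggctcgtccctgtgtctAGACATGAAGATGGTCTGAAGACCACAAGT

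At the downstream border, U023935-2 (34598562 to 34609280, 477 nt) carried exons 2 to 5 of Gm3143 and 3 of its introns (8667, 434 and 1141 bp). The annotated exon 1 of Gm3143, of 103 nt, was not part of it. U284344-1 (34581555 to 34581668, 114 nt) was the shortest transcript of the interval and has both ends of Gm43206, on the Sox2ot strand just beyond its annotated end.

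Every spliced transcript of the interval had an annotated splicing pattern, and most unspliced ones had no annotated counterpart. All 9 multi-exon transcripts had each of their introns at the annotated length and distance. For U227811-1 this was fixed in advance, since it was chosen as the landmark for having the structure of Gm34599. The 13 distinct introns, 3 on the plus and 10 on the minus strand, were all annotated. In 8 transcripts of the interval both ends equalled annotated ones to the base. How the list was assembled is not given, so these matches cannot be taken as independent of the annotation. Of the 23 single-exon transcripts 6 corresponded to an annotated gene with both ends within 10 bp. These were the 2 Sox2ot, 2 Gm42693 and the Gm43206 transcripts and U112614-1 (887 nt), at the processed pseudogene Gm5708. The other 17 had names starting with U, lengths of 161 to 745 nt with a median of 475 nt, and lay 6 on the plus and 11 on the minus strand. Of the 17 annotated genes that the interval covers by distance from Gm34599, 10 were represented, 6 on the minus and 4 on the plus strand. The 7 that were not are Sox2, the spliced noncoding gene Gm29135, the microRNA gene Mir1897 and the unspliced Gm27403, RF01953, Gm42692 and Gm27611. Of these, Mir1897, RF01953 and Gm27403 lie inside annotated Sox2ot exons, and Gm27611 overlaps another Sox2ot exon. Their absence is therefore not separate from that of those exons.

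The 13 introns ranged from 97 to 311263 bp with a median of 1692 bp, against a median of 1379 bp for the 40062 distinct introns of the whole list. The long Sox2ot intron ranked 88th in length among these, within the 506 introns (1.26%) that exceed 100 kb. By span, U229927-1 ranked 184th of 110003 transcripts.

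**Figure D3:**
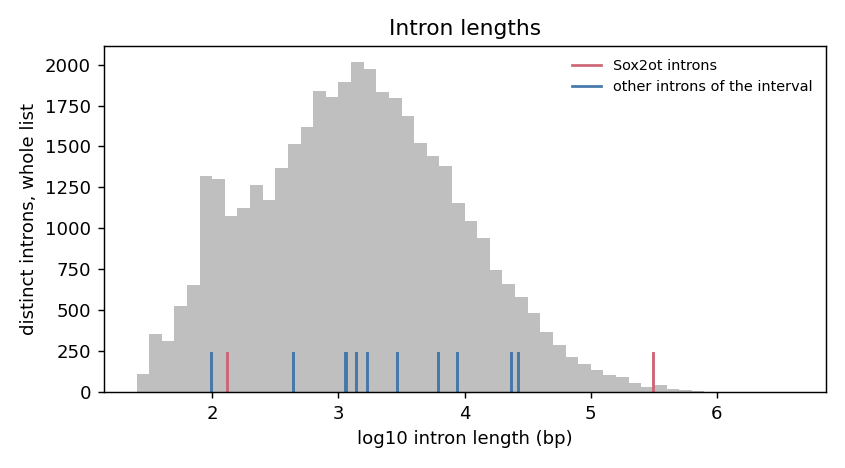
Lengths of the 40062 distinct introns of the list (grey bars, log10 of bp) with the 13 introns of the interval marked as short lines, red for Sox2ot and blue for the rest. Of the 13, the 311263 bp intron of Sox2ot is the longest, and its 131 bp intron is longer only than the 97 bp intron of Gm42205.

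Transcripts of the interval came from 2 of the 4 name types. Names starting with U made up 29 of 32 (90.6%, Wilson 95% interval 75.8 to 96.8%) and FT 3 of 32 (9.38%, 3.24 to 24.2%), against 79.2% and 10.7% in the whole list. BROAD names (7697 in the list) and WHITEHEAD names (3352) were not met, and 0 of 32 allows a share of up to 10.7% by the same method. Of windows of 600 kb laid over the autosomes and X, 50.6% also held none of them. More than 1 exon was present in 9 of 32 (28.1%, 15.6 to 45.4%), close to the 29.9% of the list. The minus strand held 20 transcripts (62.5%, 45.3 to 77.1%), against 55029 of 110003 in the list. Of the 9 spliced ones it held 7, against 16014 of 32887 in the list. The intervals cover counting error only, overlapping transcripts are not independent, and these shares were not tested against each other.

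All 3 FT transcripts had a U transcript at the same place. Both ends were identical for FT310371 and FT319283 and within 5 bp for FT326363. In the whole list 35.5% of 11825 FT transcripts had a U transcript with identical ends and 46.8% had one within 5 bp. The FT scores of 996 to 998 fall within a range of 918 to 1000 with a median of 1000 over all FT names, and no label or header defines the score.

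The interval held more transcripts than the median window. Its 32 exceeded the number in 72.2% of 4388 windows of 600 kb, which had a median of 20 (quartiles 11 and 33). Its 9 multi-exon transcripts exceeded 70.3% of windows (median 5, quartiles 2 and 10).

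**Figure D4:**
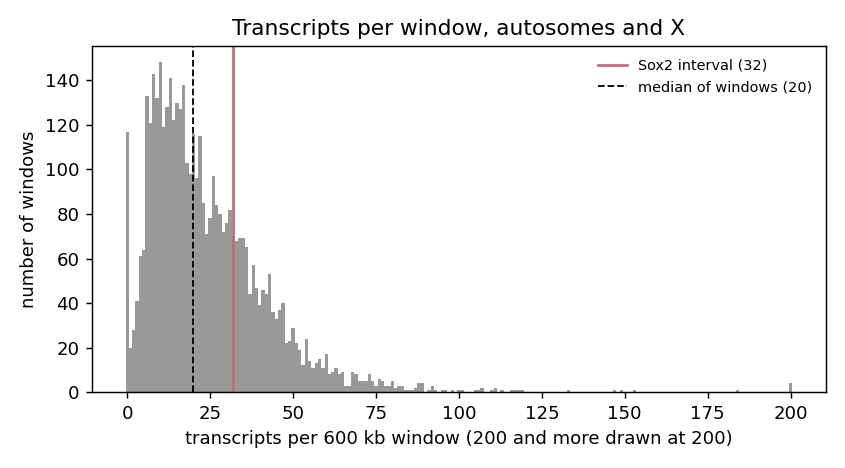
Number of transcripts per 600 kb window over the autosomes and X (grey bars), with the interval around Sox2 (32, red line) and the median of the windows (20, dashed line). The interval lies above the median, inside the bulk of the windows.

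Transcripts of the 2 strands met at few places. Merged by overlapping spans of 1 strand, the 32 transcripts formed 24 loci, 7 on the plus and 17 on the minus strand. All 12 overlaps between strands were of U229927-1 with the antisense transcripts in its intron, and in 0 of them did exons overlap. The title of the series concerns RNAs that start beside coding genes in the opposite direction, and Sox2 had no such partner within 2000 bp. The 1 pair with facing 5′ ends within that distance joined U023932-1 (Gm20515) to U328285-1, an unspliced plus-strand transcript of 669 nt without a gene, 1078 bp apart. Facing 3′ ends within 2000 bp occurred in 2 pairs, U129733-1 with U023935-2 (Gm3143, 280 bp) and U328285-1 with U324407-1 (1682 bp). Sox2ot itself starts 22949 bp from the nearest coding 5′ end of the other strand in GRCm38, that of Dnajc19, which encodes a mitochondrial import protein.

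Sox2ot was set beside other noncoding genes that overlap or adjoin developmental regulators. Of 25 such genes in a list, 22 have an annotation entry under that name and 18 were found by runs of intron, exon and intron lengths, with 1 to 11 transcripts each. By this measure Sox2ot and Hotairm1, which lies in the HoxA cluster, had 1 transcript, and Six3os1, beside the eye and forebrain regulator Six3, had the most with 11. Over all annotated genes that could be matched in this way, coding ones included, 3843 of 25151 (15.3%) were found. Among these 3843 the median was 2 transcripts, and 1578 (41.1%) had 1. The shares were not tested against each other. Sox1ot, Dlx6os1, Hoxb3os and Zeb2os had none.

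The long intron of Sox2ot was the longest of the 18 genes, ahead of 101875 bp for Nkx2-2os and 92722 bp for Otx2os1, partners of a neural tube and a forebrain regulator, while the longest intron of Hotairm1 was 907 bp. An FT transcript with such a run was present for 12 of the 18 genes, not including Sox2ot, and BROAD and WHITEHEAD transcripts for Vax2os alone. Wt1os and Foxd2os had 5 transcripts each, Evx1os, Lhx1os, Tbx3os1 and Hoxa11os 4, Otx2os1, Vax2os, Fendrr and Hand2os1 3, and Pax6os1, Dlx1as, Nkx2-2os, Emx2os and Zfhx2os 2. These genes were set side by side without a test.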

How the data were processed

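RNA of the embryonic stem cell line went, per the labels' protocols, into 1 polyadenylated and 1 ribosomal-depleted strand-specific library. The submitters' processing notes name TopHat and mm9. Per the file header, the deposited table is an initial pool of RNA on mm9, in BED format with 12 columns. Its assembly and filters are not given in the sources used here. Per the file, the score column was deposited by the authors as whole numbers on a scale that differs by name prefix (0 for every U name), and was only quoted.

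Blocks with gaps under 30 bp were joined into exons with Python 3.11.15. Spans overlapping by at least 1 bp on 1 strand formed loci. Genes were named from GENCODE M21 (GRCm38) by lengths of intron, exon and intron in transcripts with at least 3 exons. The others were named by intron length, or both ends within 10 bp, at an equal distance from Gm34599, a step added after the data were seen. Distances were taken within each build and no coordinate was converted. Joining, loci, merging of starts and the match by runs of lengths were checked on made-up transcripts and shifted annotated ones. Naming by distance from Gm34599 was not part of that check. Intervals are Wilson 95% intervals (scipy 1.17.1). No test was made, since 1 pooled list has no replicates. The genes named by rule are Sox2ot, Sox2, genes matched in the interval and matched members of the 25-gene list. Outside the rule, unmatched genes of the interval and of that list, the marker genes, and Dnajc19 and Gm38509 are also named, the last 2 chosen after their values were seen. Members and lists were chosen with earlier results of these data known.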

Additional observations from a re-analysis of the deposited data

How the results depend on the processing

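Without names starting with U, the interval held 3 transcripts in place of 32, 1 multi-exon transcript in place of 9 and 1 distinct intron in place of 13. Multi-exon transcripts alone formed 7 loci in place of 24. Sox2ot was found in 1 transcript by runs of lengths and in 3 when transcripts with both ends at the annotated distances were added, an alternative chosen after seeing the data. These 5 changes follow from the construction of each alternative, with fewer or more transcripts counted. The other 12 of 17 alternatives kept their count within 1.5 times. They include 39 transcripts with the interval widened by 50 kb on each side, 31 that lie wholly inside and 28 loci by overlap of exons. They also include 0 transcripts across the Sox2 point under each alternative tried. Those alternatives only narrow a count that was already 0, so that outcome was fixed in advance and adds no support. No paired analysis was possible because each group has 1 library and the list does not separate them. Depth is unknown, so a transcript missing from the list is no measure of its level.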

Other observations

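The first BROAD and WHITEHEAD transcripts downstream of Sox2 lay beyond the interval, 107594 bp from the Sox2 point, and were looked at after the map was seen. From 34656494 to 34681323 on mm9 there were 9 BROAD and 8 WHITEHEAD transcripts, all 17 on the plus strand, in 3 loci with up to 6 exons. They held 18 distinct introns, of which 5 occurred under both names, and scores of 1 to 94. The U transcript U115667-1 (34670997 to 34681268) has exons of 217 and 933 nt and an intron of 9122 bp, as annotated for Gm38509, which RefSeq also lists as Peril. Its intron was also present in a BROAD or WHITEHEAD transcript. These values were not tested.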
